A study of Mus musculus with 2 samples.

Results

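Out of 59709 probes other than control probes on the array, 6100 were taken as probes for mouse noncoding cDNAs of the FANTOM3 collection. They were chosen by the probe identifier alone, as the probes ASMM9PARTA000001 to ASMM9PARTA006100, and each was spotted once. Below, a probe is called by the number at the end of its identifier. The control array carried RNA from the lower lobe of the right lung of male BALB/c mice given saline, and the paraquat array RNA from the same lobe of mice injected into the peritoneum with 10 mg/kg of the herbicide on each of 5 days. Animals were 8 weeks old, and lungs were taken on day 12 after the first injection. Most paraquat-treated mice died according to the series' design text, and the RNA of each array came from 3 lungs that had been mixed. Each group therefore had 1 array, so no test was run, no difference has a replicate check and no spread between mice can be given. The strain, sex and tissue were shared by both groups, and neither carried a genetic change. In whole lung, fewer cells of a type and less RNA per cell cannot be told apart. The tissue could not be checked, since 0 of 24 lung, blood vessel, immune and other tissue markers had a probe with a gene name in the files.

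FANTOM, the Functional Annotation of the Mouse, sequenced full-length cDNA clones that the RIKEN institute had made from many mouse tissues, developmental stages and cell cultures. A large part of these clones held no clear open reading frame and was catalogued as noncoding RNA under GenBank accessions that start with AK. Such transcripts include antisense RNAs, intergenic RNAs and fragments of introns or unspliced precursors, and most have no known function. Their levels are often low and differ between tissues, which makes the set a broad sample of noncoding transcription rather than a pathway.

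The files name none of these probes beyond the identifier, and 5 of them could be identified by their signals from the study's list of changed lncRNAs. Of 32 entries in that list, 31 matched exactly 1 probe with both printed intensities within 0.01 of the processed signals. The range was drawn from entries that the list assigns to FANTOM3, with AK131705 as its upper end, so that their place inside it is no check of the label. It holds 4 such entries, and 1 more entry in it, AK006956, is listed under the source NRED, a database of noncoding RNA expression. Among these 5 entries the order of the probe numbers followed that of the accessions. AK005145 was probe 122, AK006956 probe 372, AK016356 probe 1166, AK031320 probe 2115 and AK131705 probe 6100. Where the FANTOM3 probes end is not given in the sources used here. The next matched entry above the range was an Ensembl transcript at probe 12906, so FANTOM3 probes may lie above 6100 as well, and probes of other sources may lie within. At the end of the range, probe 6099 had signals of 72.0 on the control and 47.1 on the paraquat array. The first probes outside, 6101 and 6102, had signals of 99.0 and 43.1, and of 18.1 and 6.16, in the same order. AK052811, which the study measured by PCR, was not assigned to a probe.

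A signal here is the brightness of a spot after Feature Extraction had subtracted its background, and a difference is the paraquat minus the control value on the log2 scale after quantile normalization. Detected means that Feature Extraction had marked the spot as well above background. Of the 6100 members, 10 were left out because their spot was marked as an outlier on at least 1 array, 5 of them on the control and 7 on the paraquat array. No spot of the remaining 6090 was saturated. The control array was brighter as a whole, with a median log2 signal of 5.43 over all probes against 4.60 on the paraquat array. Where a single difference is given with an error, this is the error that Feature Extraction assigned to both signals, carried over to the log2 scale. It covers the measurement of the spot and not the spread between mice or hybridizations. For 15 reference genes spotted 20 times, the SD of log2 signals between spots was taken on each array before normalization. The SDs of both arrays were combined as the root of their summed squares, without pairing spots by position. This value was 0.190 in the median gene and lay between 0.137 and 1.26.

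At least 1 array detected 3686 of the 6090 FANTOM3 members (60.5%), mostly with a dim signal. On the control array 3396 (55.8%) were detected, and on the paraquat array 3064 (50.3%). Both arrays detected 2774 members (45.6%). The control array alone detected 622 and the paraquat array alone 290, and 2404 were detected on neither. More members were thus seen on the brighter control array. The same held over all 59625 probes, of which the control array alone detected 5136 and the paraquat array alone 2668. The median signal of all members was 26.8 on the control and 15.2 on the paraquat array, close to the lowest signals marked as detected, which were 19.4 and 13.2.

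The members were among the dimmer transcripts of the array. Of the other probes on the lncRNA side, 48.4% were detected on both arrays, and of the mRNA-side probes 63.0%. The other lncRNA-side probes include those numbered just above the range, which may be FANTOM3 probes as well. Stretches of the numbering that lie between matched entries of other sources had shares of 48.8% (Ensembl, 2927 probes), 52.8% (UCSC, 5205 probes) and 55.9% (RefSeq, 1211 probes). Over probes detected on both arrays, the median signal of the FANTOM3 members was 137 on the control and 76.1 on the paraquat array. The same medians were 175 and 96.1 for the other lncRNA-side probes, and 224 and 110 for the mRNA-side probes. These are shares of probes on 1 pair of arrays, and their difference was not tested.

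**Figure D1:**
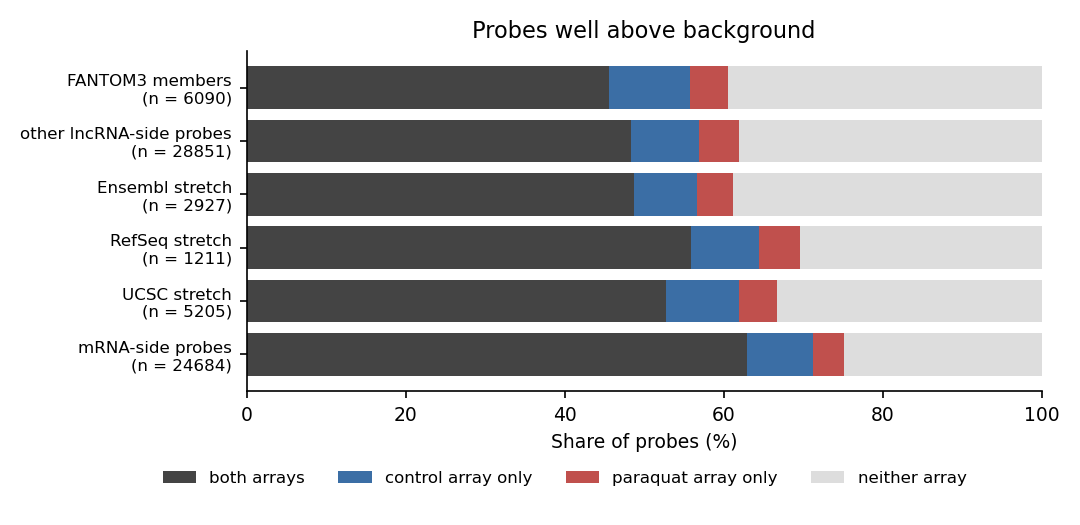
Share of probes (x axis, %) well above background on both arrays, on 1 array only or on neither, for the FANTOM3 members and other sets of probes (y axis, n is the number of probes). The FANTOM3 bar for both arrays, at 45.6%, is the shortest of the 6 sets, and the mRNA side, at 63.0%, has the longest.

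A small number of members were bright. On the control array 344 had a signal of at least 1000 and 37 of at least 10000, and on the paraquat array these numbers were 248 and 26. At least 1000 was reached on both arrays by 198. By the mean of both normalized log2 signals the brightest was probe 6045, with a signal before normalization of 52838 on the control and 32990 on the paraquat array. Probe 2164 had 33447 and 53238, probe 5536 had 40698 and 31192, probe 96 had 40704 and 29441, and probe 665 had 37062 and 25916. These 5 were close to each other on the 2 arrays. Their differences lay between -0.59 for probe 6045 and 0.80 for probe 2164, each with an error of 0.20. The sign was the other way for all but probe 2164 with a 75th percentile or median shift, so that these members cannot be ordered between the groups. Among the 100 brightest members, 72 were within 2-fold and 4 were 5-fold apart or more. Of all probes detected on both arrays, 71.2% were within 2-fold. By 5-fold or more, 2.77% of those probes rose and 1.78% fell. No share over equally bright probes is given here, so the counts of the brightest members are a description.

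Detection was uneven along the probe numbers, whose order by accession rests on the few identified probes alone. In 12 blocks of 500 consecutive probes, the share detected on both arrays lay between 41.5% and 53.0%, with a median of 44.8%. A finer division into 61 blocks of 100, chosen after seeing the data, ran from 23.0% to 67.0%. Probes 501 to 800, which lie between AK006956 and AK016356, were the richest stretch, with 187 of 299 members (62.5%) detected on both arrays. Their median signals were 85.7 on the control and 36.8 on the paraquat array. Of probes 901 to 1300, 124 of 399 (31.1%) were detected on both arrays, and their median signals were 11.5 and 7.55. Both stretches were picked for these shares. Their placement on the array was alike, with 36.1% of the richer and 34.3% of the poorer stretch in columns 1 to 64, where 38.6% of all members lay. Within these columns the shares were 54.6% and 21.9%, and in the columns above 80 they were 70.0% and 37.7%. Because the stretches were picked for their shares on these arrays, this split is a description. The part that position plays was not tested.

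**Figure D2:**
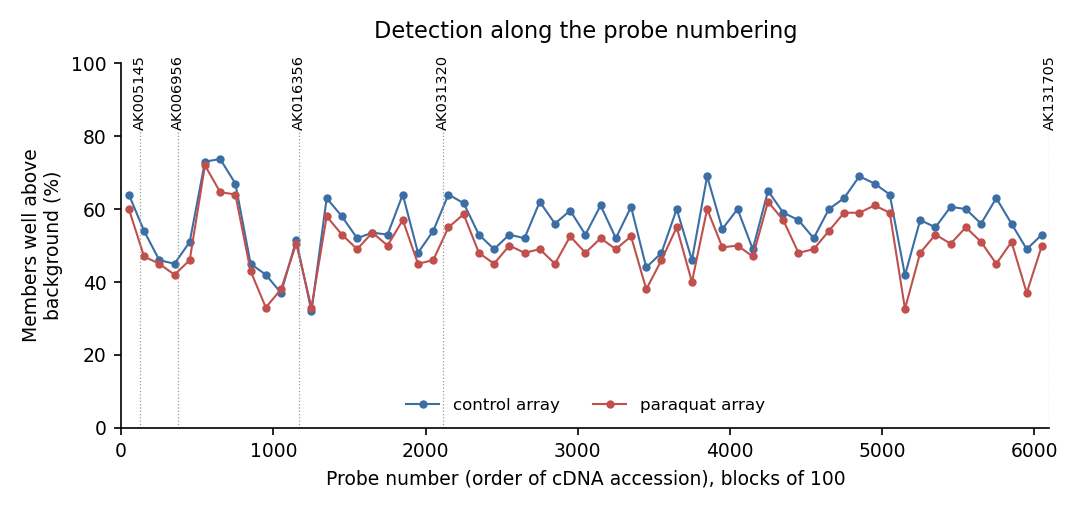
Share of members well above background (y axis, %) in blocks of 100 consecutive probe numbers (x axis), on the control array (blue) and the paraquat array (red). Vertical lines mark the 5 probes with a known accession. The lines of the 2 arrays run in parallel, with a peak in probes 501 to 800 and a trough in probes 901 to 1300.

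Along the same order, the median difference of the 12 blocks of 500 lay between -0.09 and 0.10. In the blocks of 100 it lay between -0.37 and 0.30, and of the members detected on at least 1 array 1.61% to 15.0% were at least 5-fold higher and 0% to 16.2% at least 5-fold lower. In the stretch of high detection the median difference was -0.002, and in the stretch of low detection it was 0.01. At least 5-fold higher were 16 of 226 members in the former and 23 of 192 in the latter, and at least 5-fold lower were 9 and 8. Of all members detected on at least 1 array 6.78% were higher and 6.10% lower, and of all probes 5.54% and 4.56%. Members with adjacent numbers were not alike in their difference, with Pearson's r of -0.032 over 1321 adjacent pairs detected on both arrays. For the mean log2 signal r was 0.057 over 6079 pairs. These are descriptions across probes of 1 pair of arrays.

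Comparison of the paraquat with the control array asks which of these transcripts differed between fibrotic and normal lung. Most FANTOM3 members did not differ by much. Over the 2774 detected on both arrays the median difference was 0.002, with quartiles of -0.58 and 0.65, and 1875 (67.6%) were within 2-fold. This share was below that of all probes detected on both arrays, 71.2%. It was 73.0% for the other lncRNA-side and 70.2% for the mRNA-side probes. The normalized log2 signals of the 2 arrays had a Pearson's r of 0.853 and a Spearman's rho of 0.801 across these probes; probes are no replicates. Their differences had an SD of 1.14, compared with 1.04 for the other lncRNA-side and 1.11 for the mRNA-side probes. The median error of a single difference was 0.22, but how much arrays of the same group would differ is not known.

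At 5-fold, the fold change that the study used, 250 of 3686 members detected on at least 1 array were higher on the paraquat array (6.78%), where 5.54% of all probes were. Lower by at least 5-fold were 225 (6.10%), where 4.56% of all probes were. The share of higher members was 6.24% among the other lncRNA-side and 4.63% among the mRNA-side probes, and that of lower members 4.42% and 4.39%. Of these calls, 119 of the higher and 140 of the lower members lay among the dimmest 25% of the detected members by mean signal. There, all of them rested on a signal that was not well above background on 1 array. Among the brightest 25%, 50 members were higher and 21 were lower, all detected on both arrays.

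When detection on both arrays was required, the rises of 5-fold or more numbered 100 (3.60%, with 2.77% of all probes) and the falls 47 (1.69%, with 1.78% of all probes). Rises of 10-fold or more were seen for 17 members and such falls for 13. With signals that were not well above background set to the lowest signal that was detected, 128 members were higher and 84 lower. In the authors' processed values, which hold 2278 of these members, 83 rose and 33 fell by 5-fold or more. For the 10-fold counts, the raised dim signals and the authors' values, no share over all probes is given here. These counts thus describe the members only.

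How many members rose depended on where their spots lay on the slide, as it did for all probes. The array had 164 columns. In columns 1 to 64, 157 of 1269 detected members were at least 5-fold higher (12.4%, with 10.3% of all probes there), and 79 were lower (6.23%, with 4.55% of all probes there). In the columns above 80, 66 of 2048 were higher (3.22%, with 2.58% of all probes there) and 116 were lower (5.66%, with 4.42% of all probes there). The median difference of members detected on both arrays was 0.50 in columns 1 to 64 and fell to -0.15 beyond column 80. The median signal of all members was 15.9 and 38.6 in these parts of the control array, and 12.7 and 18.0 on the paraquat array. The control array thus had the larger gap between its sides.

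A correction by position took from each probe the median difference of the 50 detected probes that lay nearest to it and had a similar signal. After it, 170 members were at least 5-fold higher (4.61%, with 3.71% of all probes) and 194 were lower (5.26%, with 4.06% of all probes), so that falls outnumbered rises. The shares of higher members then were 4.49% (columns 1 to 64, with 4.25% of all probes there) and 4.25% (columns above 80, with 3.25% of all probes there). Those of lower members moved apart, at 8.83% and 3.03%, as they did over all probes, at 6.84% and 2.27%. With the correction the rises of the members were nearly even across the array. The falls were not, for the members as for all probes.

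**Figure D3:**
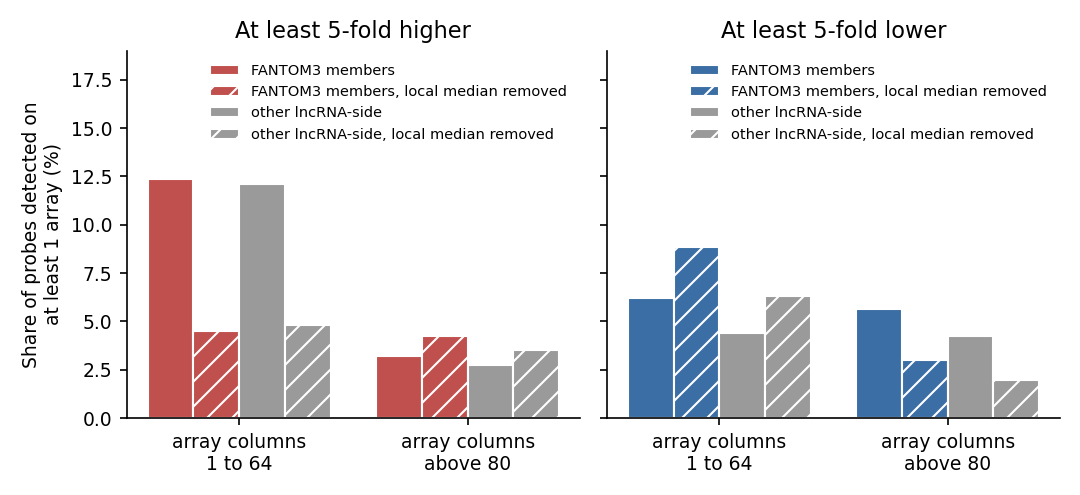
Share of probes detected on at least 1 array (y axis, %) that were at least 5-fold higher (left panel) or lower (right panel) on the paraquat array, in 2 parts of the array. Coloured bars are FANTOM3 members, grey bars other lncRNA-side probes, and hatched bars the values after subtraction of the local median. Rises of the members stand at 12.4% in columns 1 to 64 and at 3.22% beyond column 80, and at 4.49% and 4.25% after the subtraction.

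Of the 2774 members seen on both arrays, 50 kept a difference of 5-fold or more in the same direction with quantile, 75th percentile or loess scaling, with normexp, and after the position correction. Of these, 33 were higher (0.926% of all probes passed this rule) and 17 were lower (0.564% of all probes). Of the 33 that rose, 15 lay among the 905 members seen on both arrays in columns 1 to 64, and 15 among the 1602 beyond column 80. Their median signal was 347 on the control and 1650 on the paraquat array, and their differences had a median of 3.17 and reached from 2.53 to 5.44. The 17 that fell had median signals of 1241 and 63.1, and their differences reached from -4.94 to -2.83. Of these, 9 lay in columns 1 to 64 and 6 beyond column 80. The signals of these members are in part set by the rule, since a spot has to be far above the background on 1 array to be 5-fold apart with normexp.

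**Figure D4:**
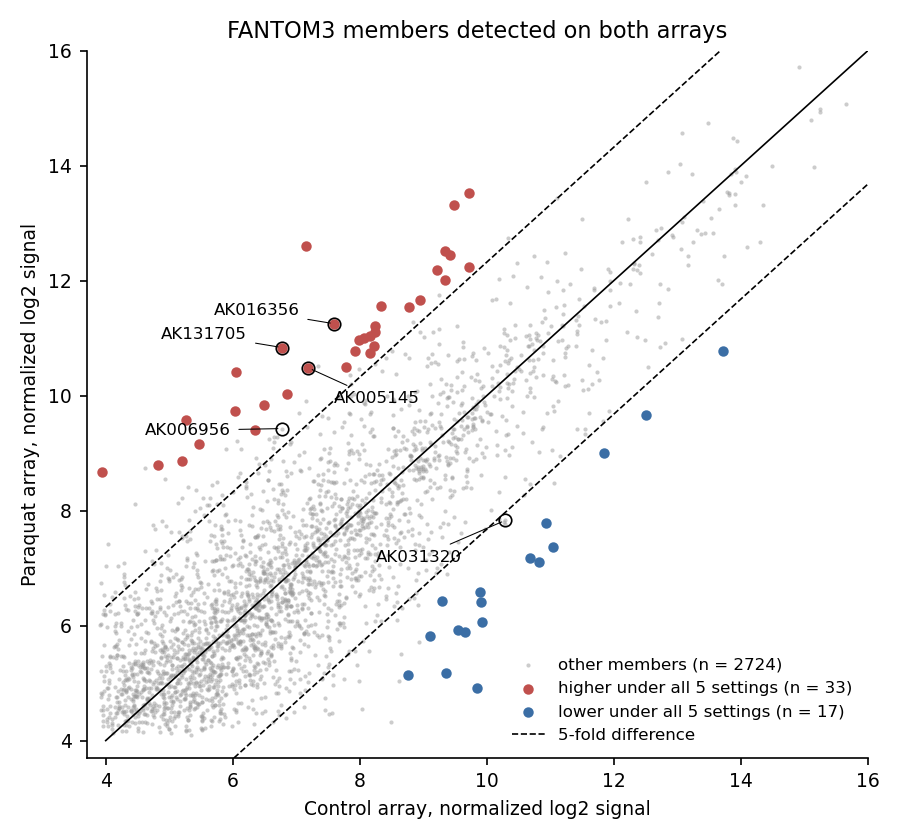
Normalized log2 signal of the 2774 FANTOM3 members detected on both arrays, on the control array (x axis) and the paraquat array (y axis). Dashed lines mark a 5-fold difference, coloured points the members past it under all 5 settings (33 higher in red, 17 lower in blue), and circles the 5 members with a known accession. Most points lie along the diagonal, and the points that rose reach up to 5.44 on the log2 scale.

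The 5 members with an accession come from a list that the study chose for its change on these same 2 arrays, so their differences are a description. AK131705, which the study associates with Phospho1, a phosphatase that initiates mineralization in cartilage and bone, had a signal of 150 on the control and 1490 on the paraquat array. Its difference of 4.06 ± 0.21 was the 6th largest rise among the members detected on both arrays, and 4.23 after the position correction. AK016356 is associated with Dscr3, the former name of Vps26c, a subunit of a complex that recycles membrane proteins from endosomes. Its signals were 268 and 2015, a difference of 3.65 ± 0.21 that was 3.87 after the correction. AK005145 is associated with Efha2, now Micu3, a regulator of calcium uptake into mitochondria. It had signals of 201 and 1143, a difference of 3.29 ± 0.21, or 3.42 after the correction. All 3 were past 5-fold without normalization as well.

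The other 2 were nearer to the threshold. AK006956, associated with Nrf1, a transcription factor for mitochondrial genes, had signals of 150 and 522 and a difference of 2.65 ± 0.21. This was 3.04 after the position correction, but under 5-fold without normalization (1.80), with normexp (2.05) and without background subtraction (2.22). AK031320 is associated with Pln, which encodes phospholamban, the inhibitor of the calcium pump of heart muscle. It was the only one of the 5 with a lower signal on the paraquat array, at 1586 and 165, a difference of -2.46 ± 0.21. It was under 5-fold with normexp (-2.00), without background subtraction (-2.09) and after the position correction (-1.94). How each cDNA lies relative to its associated gene is not given in the sources used here, and the mRNAs of these genes were not analysed here.

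Among the members past 5-fold under all 5 settings, the largest rise was that of probe 2792, from 197 on the control array to 5545 on the paraquat array. The difference was 5.44 ± 0.21, or 43.6-fold. Probe 3064 went from 19.8, just above the lowest detected signal, to 300.3, a difference of 4.72 ± 0.35. Probe 4408 had 90.4 and 1090, and probe 1847 had 51.2 and 584, with differences of 4.37 ± 0.21 and 4.32 ± 0.23. Both of these lay in columns 1 to 64, and their differences were smaller after the position correction, at 3.69 and 3.48. Probe 1823 went from 37.6 to 326 (3.96 ± 0.25). A pair of bright members rose as well. Probe 1923 had signals of 943 and 9367, a difference of 3.82 ± 0.20, and probe 6041 had 1095 and 10907, a difference of 3.80 ± 0.20. With normexp, which compresses differences of dim spots, these were 3.68 and 3.80, whereas those of the dimmer probes 3064, 1847 and 1823 were 2.64, 2.85 and 2.58. Probe 5400, with 88.8 and 659, and probe 3927, with 59.4 and 426, had differences of 3.71 ± 0.21 and 3.69 ± 0.22. The list of 10 also holds AK131705. After the position correction all 10 rises were between 3.33 and 5.39, and with normexp between 2.58 and 4.97.

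The largest fall was that of probe 2235, from 1195 on the control array to 22.7 on the paraquat array, a difference of -4.94 ± 0.28 or 30.6-fold. Probe 4261 went from 870.1 to 27.0 (-4.19 ± 0.25). Both ended close to the lowest detected signal. With normexp, which compresses such dim signals, their differences were -3.34 and -2.82. Probe 3684 had 1256 and 49.1, probe 4363 had 1051 and 43.4, and probe 3447 had 2231 and 99.4, with differences of -3.87 ± 0.22, -3.77 ± 0.23 and -3.73 ± 0.21. These 3 lay in columns 1 to 64 and fell further after the position correction, to -4.23, -4.10 and -4.37. Probe 4396 was the brightest of the group on the control array, with 2569 there and 119 on the paraquat array (-3.68 ± 0.21). Probe 5082 was similar, with 2040 and 105 (-3.51 ± 0.21). The remaining members were probe 1405 with 592 and 26.2, probe 1385 with 982 and 44.4, and probe 490 with 1241 and 62.5. Their differences were -3.63 ± 0.27, -3.63 ± 0.23 and -3.50 ± 0.21. Probes 2235, 1405 and 1385 also lay in columns 1 to 64. Their falls were smaller after the position correction, at -4.90, -3.34 and -3.55. After the position correction all 10 falls were between -4.90 and -3.24, and with normexp between -3.34 and -2.45. The authors' processed values hold 20 of these 24 members, with AK131705 counted once, and all 20 were at least 5-fold apart there. All 24 had been picked for their difference on these same arrays, by the study or here. The count of 20 is therefore no independent check.

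**Figure D5:**
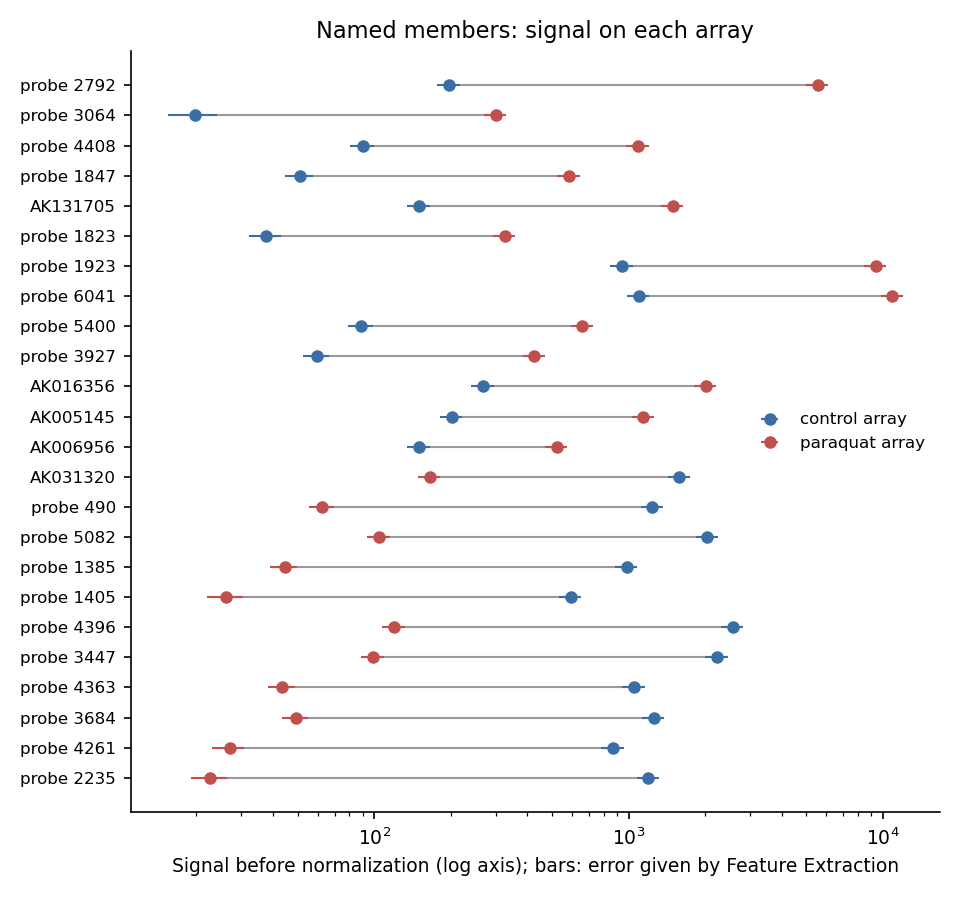
Signal before normalization (x axis, log scale) of 24 named members (y axis) on the control array (blue) and the paraquat array (red), with the error given by Feature Extraction, ordered by their difference. The members at the top rose, as probe 2792 from 197 to 5545, and those at the bottom fell, as probe 2235 from 1195 to 22.7.

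Members seen on 1 array only can be given a bound on the quantile-normalized scale. For these, the brighter normalized signal was set against the lowest signal well above background on the other array, or against the member's own signal where that was higher. Among the 290 members detected on the paraquat array only, 28 were at least 5-fold higher by this bound. No count over all probes is given here for the bound, so counts by it cannot be set against an array-wide share. Probe 2300 had a signal of 198 on the paraquat array and 15.2, not well above background, on the control array. On the normalized scale it was at least 17.9-fold higher. Probe 1336 had 152 and 3.86 (at least 13.8-fold higher), and probe 3551 had 141 and 18.3 (at least 12.9-fold higher). The control value of probe 1336 was a floor that many undetected members shared. Its difference from that value had an error of 1.45. The next were probe 4567 with 134 and 5.82 (at least 12.2-fold higher) and probe 3637 with 127 and 18.1 (at least 11.6-fold higher). These bounds hold on the quantile-normalized scale alone. After the position correction the log2 differences of these 5 members from their own signals were, in order, 3.46, 6.12, 4.47, 5.19 and 2.83. They cannot be set against the bounds, which use the lowest detected signal of the control array. The local medians taken off were 1.03, -0.17, -0.71, 0.07 and 0.81. Taken off the bounds, they would make those of probes 2300, 4567 and 3637 smaller. With normexp the differences were between 1.65 and 2.06, under 5-fold for all 5. Of the 290, 167 lay in columns 1 to 64 and 92 beyond column 80. Over all probes, 2668 were seen on the paraquat array only, with 1734 and 697 in these parts.

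The 622 members detected on the control array only were dim as well, with a median signal of 32.6 there, and the bound put 37 of them at least 5-fold lower after paraquat. Probe 5676 stood out, with 582 on the control and 3.24 on the paraquat array, at least 25.3-fold lower. Probe 3877 had 342 and 2.70 and was at least 14.7-fold lower. Probe 3755 had 341 and 3.20, which is also at least 14.7-fold lower. Taken from their own signals, the log2 differences of probes 5676, 3877 and 3755 had errors of 1.45, 1.46 and 1.45. Probe 1357, with 328 and 12.1, and probe 117, with 305 and 10.3, were at least 14.1-fold and at least 13.1-fold lower. In contrast to the members seen on the paraquat array only, 197 of the 622 lay in columns 1 to 64 and 354 beyond column 80. The same contrast was seen over all probes. Of the 5136 seen on the control array only, 1521 lay in columns 1 to 64 and 3083 beyond column 80. After the position correction the log2 differences of these 5 members from their own signals were, in order, -6.62, -5.56, -5.88, -3.34 and -4.67. They cannot be set against the bounds, which use the lowest detected signal of the paraquat array. The local medians taken off were -0.30, -0.71, -0.26, -0.60 and 0.59. Taken off the bounds, they would make all but that of probe 117 smaller in size. With normexp the differences were between -2.94 and -1.89, and 2 of the 5 were at least 5-fold lower.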

How the data were processed

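Lung RNA of saline-treated and paraquat-treated mice was depleted of rRNA, labelled with Cy3 from random primers and hybridized to 1 array per group. The authors deposited spot intensities as Agilent Feature Extraction 10.7.3.1 gave them, after its background subtraction and spatial detrending and with no normalization between the arrays, with marks (other columns) for outlier, saturated and detected spots. They also deposited processed values on a log2 scale, made with quantile normalization in GeneSpring GX per the methods. The design is annotated on mm9. The files give both arrays the same scan. Here, outlier spots were left out, log2 processed signals were quantile-normalized over 59625 probes, and the paraquat minus the control value was taken. The mRNA side is the run of 24593 consecutively numbered probes that the authors' processed values lack, plus 118 probes whose name is a RefSeq accession for a protein-coding transcript.

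Members and lists were chosen with earlier results of these data known, and the comparison with stretches of other sources was chosen after seeing the data. The rule for named members takes the FANTOM3 entries of the study's list, the 10 largest rises and 10 largest falls among members detected on both arrays and past 5-fold under 5 settings, the 5 brightest, the 5 largest bounds in each direction, and the probes at the end of the range. AK006956 was added because it lay in the range. The position correction used neighbours with a mean signal within 1 on the log2 scale. Normexp used an offset of 50 and the median spot signal. The steps were tested on simulated data. The precision of every value is limited by there being 1 array per group. Normalizations other than quantile and shifts ran in limma 3.58.1 (R 4.3.3), and the rest in Python 3.11.15 (pandas 2.3.3, numpy 2.4.6). Of the cell type markers (24 genes) 0 had a named probe, so the makeup of the tissue was not examined. Sequences of the cDNAs and probes were not used here.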

Additional observations from a re-analysis of the deposited data

How the results depend on the processing

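The counts at 5-fold held within 1.5 times their value of 250 higher and 225 lower members with a 75th percentile or median shift, loess, quantile normalization over detected probes, the position correction, no filter on dim probes, and outlier spots kept. They moved further under the other choices. Without normalization, 102 members were higher and 482 lower, so that the balance of rises and falls turned. Over all probes, too, the control array was the brighter before normalization, with median log2 signals of 5.43 and 4.60. Normexp gave 35 and 19, no background subtraction 43 and 27, and the authors' processed values 83 and 33. Detection on both arrays gave 100 and 47, dim signals raised to the lowest detected signal 128 and 84, columns 1 to 64 alone 157 and 79, and the columns above 80 alone 66 and 116. At 3-fold the counts were 478 and 447, and at 2-fold 759 and 832. Shares over all probes stand in the Results for the main setting, detection on both arrays, the position correction and the parts of the array. For the other settings none is given here, so those counts describe the members only. The median difference of members detected on both arrays, 0.002, moved by more than the median spot error without normalization (-0.82) and in columns 1 to 64 (0.50). The share detected on both arrays was 68.3% when a spot only had to be positive and significant, 38.5% in columns 1 to 64 and 51.6% beyond column 80. No named member past 5-fold changed sign under an alternative that gave it a value. For the largest rises and falls this was in large part set by the rule, which required the same direction under 5 settings. Of the 5 brightest members, all under 2-fold, 4 changed sign with a 75th percentile or median shift. The position correction gave no value for these 5. The cause of these shifts was not tested. No paired analysis was possible because each group had 1 array. Members detected on 1 array only have a bound and not a difference, and that bound depends on the normalization.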
